A study of Mus musculus with 12 samples.

Results

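The data described here are the response of the mouse beta cell line βTC3 to GW8510, read on 6 of the 12 arrays of the series. The 6 arrays are those whose titles name this line. Of these, 3 are from cultures treated with 3.3 µM GW8510 in 0.1% DMSO and 3 from cultures treated with 0.1% DMSO alone. Both groups were collected on day 5, and every gene was compared within this line. The study asked whether a small molecule can make alpha cells produce insulin, and profiled the alpha cell line αTC1 with the same doses on the other 6 arrays. The labels call each array a biological replicate and name no further treatment or genetic change in either group. Titles and the compound field give GW8510 for all treated samples, but the source name field counts the compound on as GW8510, GW8511 and GW8512 over replicates 1 to 3 of both lines. The groups follow the titles, so whether 1 compound was used rests on them. βTC3 is 1 cell line, grown from an insulin-producing tumor of mice in which the insulin promoter drives the large T antigen of SV40. This viral oncoprotein binds and inactivates p53 as well as retinoblastoma proteins, and both βTC3 groups carry it. The text of the study names this antigen for neither line, so it is not given here as a difference between them. Its part in the response of either line was not tested. The culture protocol attached to the βTC3 samples describes αTC1 cells, so the medium of the beta cells is not given in the sources used here. Because the arrays read bulk RNA, fewer cells of one state and less RNA per cell cannot be told apart.

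Beta cells take up glucose through Slc2a2, the low-affinity transporter also called GLUT2, burn its carbon mainly in mitochondria, and release insulin from dense-core granules when calcium enters. Mature beta cells keep a set of otherwise common genes at very low levels, among them the lactate dehydrogenase gene Ldha and the monocarboxylate transporter gene Slc16a1, which limits lactate production. GW8510 is a small molecule annotated as an inhibitor of CDK2, the kinase that drives cells from G1 into S phase. When oxygen is scarce or prolyl hydroxylases are blocked, the factor HIF1 raises glycolytic enzymes and a further group of genes by binding a short element whose core is ACGTG. Lysosomal enzyme genes are raised together by TFEB and related factors, which bind CACGTG elements.

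The intensities as deposited were linear, bounded at 20 and 20000, and the log2 was taken before testing. The median intensity was 176.9 and 176.8 on GW8510 arrays 1 and 2, 199.9 on GW8510 array 3 (replicate 3), and 179.6 to 182 on the DMSO arrays. GW8510 array 3 also had the fewest probe sets at the lower bound, 739 of 22690, against 953 to 1109 on the other 5 arrays. Across genes, the lowest Pearson correlation between 2 arrays was 0.997 within the GW8510 group, 0.998 within the DMSO group and 0.986 between the groups, although genes are not independent replicates. A log2 fold change had a median standard error of 0.08, a precision set by the number of arrays.

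The label of the line was checked against its markers. The probe set of Ins2, the main mouse insulin gene, and 3 of the 4 probe sets of Iapp, the amylin co-secreted with insulin, stood at the upper bound of 20000 on all 6 arrays, so these probe sets have no fold change here. On the remaining Iapp probe set the intensities were 1115, 1159.8 and 483 with GW8510, against 1095, 1082 and 1122 with DMSO, and only GW8510 array 3 stood apart (log2 change -0.36, adjusted p = 0.371, limma). The factor Pdx1, which activates the insulin gene, read 2779, 2808 and 2967 with GW8510, against 3244, 3403 and 3181 with DMSO. The line also read high for a delta cell hormone. Sst, the delta cell hormone somatostatin, stood at the upper bound on all 3 GW8510 arrays, against 18296, 17084 and 18078 on the DMSO arrays. This makes it at least 1.12-fold higher with GW8510, although its fit did not pass (adjusted p = 0.0703, limma). That p-value does not measure the spread of the GW8510 cultures, whose values stood at the bound. Alpha cell markers were mixed. Gcg, the glucagon gene, is given below, the 3 probe sets of Ttr stood at 20000 on all 6 arrays, Irx2 read 277.3 to 319.5 with GW8510 and 252 to 290.3 with DMSO, and Irx1 was dim, with 29.4 to 43.1 with GW8510 and 22.4 to 32.9 with DMSO. The 4 alpha markers read, of 7, summed to 31612.1 to 33252.4 with GW8510 and 26278.3 to 26970.6 with DMSO, and pancreatic polypeptide (Ppy) read 46.8 to 59.9 over the 6 arrays. Of 10 acinar markers 8 were read, and their summed intensity was 583.6 to 655.1 with GW8510 and 479.6 to 575.9 with DMSO. Of 7 immune markers 6 were read, with sums of 363.8 to 419.3 with GW8510 and 333.2 to 376.6 with DMSO. Of 7 duct markers 6 were read, with sums of 626.2 to 681.3 with GW8510 and 469.3 to 491.8 with DMSO, and all 10 fibroblast and endothelial markers summed to 839.9 to 1025 with GW8510 and 652 to 784 with DMSO. The alpha, acinar, duct and fibroblast sums were higher on every GW8510 array. So were the beta sum (57022.2 to 59068 against 53647.4 to 54977.3) and the delta sum (20040.7 to 20046.8 against 17126.2 to 18332.4). Much of the beta rise was that of Slc2a2 (2876 to 3242.2 against 82.3 to 91.6), while Pdx1 in the same sum was lower. Much of the alpha rise was that of Gcg, and much of the delta rise that of Sst. Ins2, Iapp and Ttr entered the sums at the upper bound. Much of the duct rise was that of Krt7 (294.8 to 362.6 against 186.1 to 203.2). Much of the fibroblast rise was that of Col1a2 (273.6 to 328.3 against 138.9 to 167.4). The part of these sums in the results was not tested.

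GW8510 changed 31.7% of the genes measured in the line, mostly by less than 2-fold. Of 12203 genes, 2283 were higher (18.7%) and 1589 were lower (13%) than with DMSO at an adjusted p under 0.05 (limma, Benjamini-Hochberg over all genes). An unadjusted p under 0.05 was found in 42.2% of genes. The median absolute log2 change of the called genes was 0.40, and the median over all genes was 0.07. A change of at least 2-fold at an unadjusted p under 0.01 was found in 153 genes upward (1.25%) and 84 genes downward (0.688%), 1.94% of genes in all. With GW8510 array 3 left out, 2060 genes were higher and 1993 lower, so that higher genes made up 50.8% of the calls, against 59.0% with all arrays. A total of 1427 rises (11.7%) and 1022 falls (8.37%) passed with any 1 of the 6 arrays left out. The GW8510 arrays lay entirely above the DMSO arrays in 28.7% of genes and entirely below them in 17.7%.

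**Figure D1:**
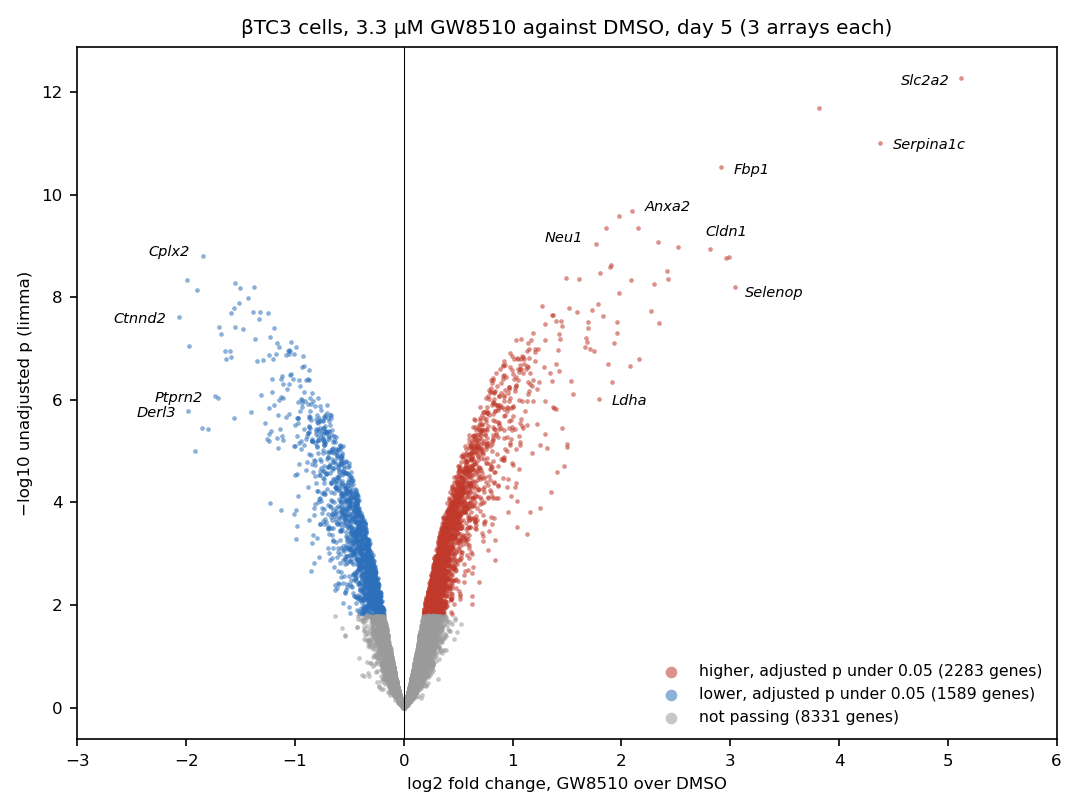
Each point is 1 of 12203 genes, with the log2 fold change of GW8510 over DMSO on the x axis and the −log10 of the unadjusted limma p on the y axis. Red points (2283 genes) were higher and blue points (1589 genes) lower at an adjusted p under 0.05, and Slc2a2 lies farthest to the right at 5.12.

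The largest change of any gene was the rise of the beta cell glucose transporter gene itself. Slc2a2 read 2993, 2876 and 3242 on the GW8510 arrays, against 91.6, 88.7 and 82.3 on the DMSO arrays. The groups lay far apart, with a log2 change of 5.12 ± 0.07 (SE) and an adjusted p of 6.64e-09 (limma). The next largest rises were smaller. Serpina1c, a gene for the protease inhibitor alpha-1-antitrypsin, read 2431, 2115 and 2437 with GW8510, against 123, 105 and 107 with DMSO, a log2 change of 4.38 ± 0.09 (SE). Its relative Serpina1b changed by 2.52, but its probe set can bind transcripts of near-identical paralogs, so the share of each gene is uncertain. Selenop, the plasma carrier of selenium, read 444, 348 and 426 with GW8510, against 45.6, 43.6 and 59.3 with DMSO, a change of 3.04.

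Perp, a membrane protein of desmosomes and a p53 target, read 1288, 1409 and 1022 with GW8510, against 158, 156 and 149.7 with DMSO, which is 7.95-fold. Fbp1, the gluconeogenic enzyme fructose bisphosphatase, rose by 2.92 on the log2 scale, and the tight-junction gene Cldn1 by 2.81. In each of these 3 genes the GW8510 and DMSO arrays did not overlap. The 15 largest rises and falls were chosen only among such genes, so this follows from the choice. The remaining genes among the 15 largest rises were 2210409E12Rik (3.82), Upb1 (2.96), Ephx1 (2.42), C1ql3 (2.42), Lgals2 (2.34), Slc39a8 (2.33), C4bp (2.30) and S100a3 (2.27). They include Upb1, an enzyme of pyrimidine breakdown, Ephx1, the microsomal epoxide hydrolase, Slc39a8, a zinc and manganese importer, and C4bp, an inhibitor of complement. The other probe sets of C1ql3, Lgals2 and Slc39a8 also changed upward, by 0.91 to 2.05.

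The largest falls were smaller than the largest rises. Cplx2, a complexin that clamps the SNARE complex before calcium triggers fusion, read 648, 611 and 694 on the GW8510 arrays, against 2368, 2348 and 2306 on the DMSO arrays, a log2 change of -1.85 ± 0.07 (SE) (adjusted p = 1.41e-06, limma). Ctnnd2, the neuronal delta-catenin, read 399, 402 and 509 with GW8510, against 1977, 1791 and 1702 with DMSO, and its 2 groups lay far apart. Derl3, which helps to move misfolded proteins out of the endoplasmic reticulum (ER), read 105, 106 and 164 with GW8510, against 498, 423 and 526 with DMSO, a change of -1.98 in which GW8510 array 3 lay nearest to the DMSO arrays. Ptprn2, the granule membrane protein phogrin, read 102, 86.3 and 130.5 with GW8510, against 363, 359.6 and 322 with DMSO, a change of -1.73. The 15 largest falls also held the synaptic genes Synpr (-1.92) and Pclo (-1.65), the adhesion genes Ctnna2 (-1.97) and Cdh8 (-1.68), the neuronal GTPase gene Rit2 (-1.80), Sez6l (-1.71), the histone gene H2aw (-1.90) and Nap1l3 (-1.64). In 3 further genes the fall was seen on 1 probe set only. Gpc6 changed by -1.99, Slc8a1 by -1.86 and St8sia4 by -1.69, while their dimmer probe sets changed by -0.12, by 0.03 to 0.09 and by 0.02.

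Most genes of glycolysis rose in the beta cells. Of 23 measured genes for glucose and lactate transporters, glycolytic enzymes and the kinases that close the entry to the mitochondrion, 18 were higher (78.3%, against 18.7% of all genes) and 2 were lower, with a median log2 change of 0.60 against 0.07 over all genes. The list counts that follow stand against 18.7% of all genes higher and 13% lower. A total of 17 of these rises and both falls passed with any 1 array left out. Ldha, which turns pyruvate into lactate, read 4332, 4051 and 4763 on the GW8510 arrays, against 1113, 1105 and 1619 on the DMSO arrays, a log2 change of 1.80 ± 0.15 (SE) (adjusted p = 5.31e-05, limma). Pfkp, the platelet-type phosphofructokinase, read 3123, 3056 and 3004 with GW8510, against 1259, 1231 and 1436 with DMSO. Pdk1, the kinase that inactivates pyruvate dehydrogenase, read 1427, 1162 and 1313 with GW8510, against 568, 713 and 577 with DMSO. In all 3 genes the lowest GW8510 array stood above the highest DMSO array. Aldoc, a brain-type aldolase, changed by 0.92, the hexokinase gene Hk1 by 0.73 and Slc2a1, the glucose transporter of most other tissues, by 0.66. Both exceptions are forms typical of neurons or muscle, but the brain-type Aldoc was among the rises. Eno2, the neuronal enolase, read 278, 297 and 305 with GW8510, against 614, 550.4 and 523 with DMSO, a change of -0.94, and Pfkm, the muscle-type phosphofructokinase, changed by -0.43.

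Most hypoxia-induced genes outside glycolysis rose as well. Of 25 measured genes, 17 were higher (68%) and 1 was lower, with a median of 0.43. Leaving out DMSO replicate 2 reduced the rises that passed to 11, the same number that passed with any 1 array left out. Ero1a, the oxidase that drives disulfide formation in the ER, read 4301, 4134 and 4136 on the GW8510 arrays, against 1135, 1168 and 1157 on the DMSO arrays, a log2 change of 1.86 ± 0.06 (SE) (adjusted p = 6.95e-07, limma). Bnip3, a mitochondrial protein that marks mitochondria for autophagy, read 6732, 6268 and 6582 with GW8510, against 2438, 2890.0 and 3099 with DMSO. Plin2, which coats lipid droplets, read 866, 978 and 938 with GW8510, against 455, 449 and 509 with DMSO. In each of these genes the GW8510 and DMSO arrays were well apart. The transcriptional repressor Bhlhe40 changed by 0.89. The exception was Vegfa, the growth factor for blood vessels, which read 512, 494 and 659 with GW8510, against 763, 770.3 and 659 with DMSO, a change of -0.41 in which the groups nearly touched and which failed the threshold in 5 of 19 alternative settings.

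The upstream windows of 3 of these genes are printed because they hold the core of the hypoxia response element. Each run gives the 250 bases before the annotated transcript start from RefSeq (GRCm38.p6), 5′ to 3′ on the strand of the gene, with ACGTG and its reverse complement CACGT in capitals. The windows lie at chr7:46845554-46845803, plus strand for Ldha, at chr14:45318573-45318822, minus strand for Ero1a and at chr7:138909507-138909756, minus strand for Bnip3.
Ldha: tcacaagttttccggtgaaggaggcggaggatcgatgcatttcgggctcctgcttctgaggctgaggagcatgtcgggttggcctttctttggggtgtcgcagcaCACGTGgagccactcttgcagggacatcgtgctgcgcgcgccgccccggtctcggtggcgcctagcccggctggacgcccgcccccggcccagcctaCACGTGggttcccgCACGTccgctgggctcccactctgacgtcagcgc
Ero1a: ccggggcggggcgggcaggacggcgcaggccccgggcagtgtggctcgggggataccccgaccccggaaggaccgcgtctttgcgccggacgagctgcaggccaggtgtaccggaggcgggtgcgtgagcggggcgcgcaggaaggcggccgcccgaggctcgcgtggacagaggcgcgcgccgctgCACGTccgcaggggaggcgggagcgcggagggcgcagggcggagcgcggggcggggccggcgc
Bnip3: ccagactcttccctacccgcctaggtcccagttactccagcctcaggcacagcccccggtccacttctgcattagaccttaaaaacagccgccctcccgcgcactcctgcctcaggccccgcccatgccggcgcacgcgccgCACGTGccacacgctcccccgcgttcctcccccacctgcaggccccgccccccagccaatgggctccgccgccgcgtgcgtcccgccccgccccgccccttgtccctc
The Ldha window belongs to 1 of 2 annotated starts. It holds 5 matches, of which 4 lie in 2 copies of the palindrome CACGTG, where each strand gives a match, and they lie 145 to 34 bases before the start. Ero1a holds 1 match 63 bases before the start, and both matches of Bnip3 belong to 1 CACGTG. Among the windows of the glycolysis list 18 of 36 (50%) held ACGTG on either strand, and among those of the other hypoxia-induced genes 16 of 27 (59.3%). The share was 27.5% for the list of replication genes, 27.3% for the list of mitosis genes, 19.9% over the windows of all genes tested and 16.6% over all windows. The window of Slc2a2, the gene with the largest rise, held no match. A match is a run of letters, and binding was not measured. A gene with several starts counts with each window, and base composition was not compared.

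**Figure D2:**
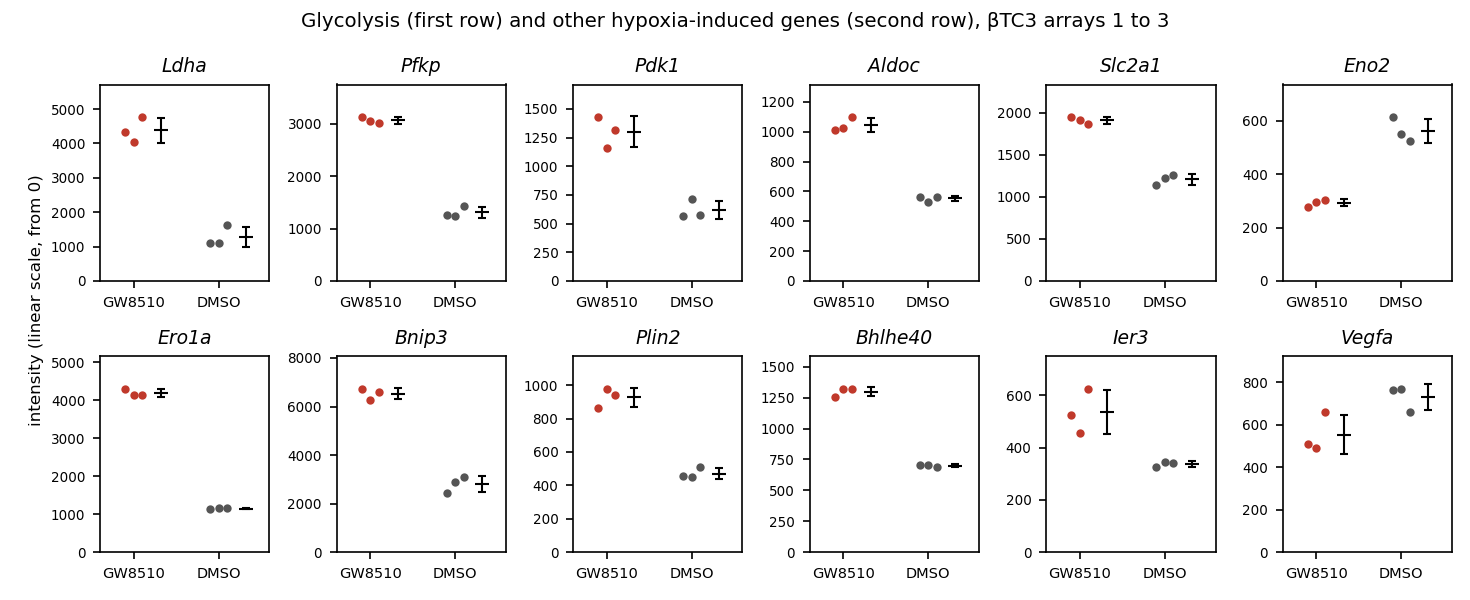
Intensity (linear scale, from 0) of 12 genes on the 3 GW8510 arrays (red, left) and the 3 DMSO arrays (gray, right) of βTC3 cells, with the mean and SD as a black bar. Eno2 and Vegfa are the genes that were lower with GW8510, and in the other 10 every GW8510 array stands above every DMSO array.

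Most lysosome genes rose. Of 50 measured genes, 32 were higher (64%) and 1 was lower, with a median log2 change of 0.36, and 28 of the rises passed with any 1 array left out. Neu1, the lysosomal sialidase, read 1901, 1908 and 1934 on the GW8510 arrays, against 584, 544 and 565 on the DMSO arrays, a change of 1.76 ± 0.06 (SE) (adjusted p = 1.13e-06, limma). Its 2 dimmer probe sets changed by 0.05 and 0.54. Gla, the alpha-galactosidase that is missing in Fabry disease, read 2426, 2277 and 2574 with GW8510, against 1095, 1077 and 1065 with DMSO. Lipa, the acid lipase, read 648, 664 and 564 with GW8510, against 318, 355 and 359 with DMSO, and the acid ceramidase gene Asah1 changed by 0.81. In Gla and Lipa the groups did not overlap. Ctsd, the aspartic protease cathepsin D, read 3873, 3987 and 3939 with GW8510, against 3131, 3156 and 3082 with DMSO, a change of 0.33. The exception was Mitf, a transcription factor of the same family as Tfeb, with 86.0, 97.7 and 99.1 with GW8510, against 139, 126 and 133 with DMSO, a change of -0.49.

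The window before Neu1 (chr17:34931003-34931252, plus strand) is printed because it holds a match to the shared core of both elements, again with ACGTG or CACGT in capitals.
Neu1: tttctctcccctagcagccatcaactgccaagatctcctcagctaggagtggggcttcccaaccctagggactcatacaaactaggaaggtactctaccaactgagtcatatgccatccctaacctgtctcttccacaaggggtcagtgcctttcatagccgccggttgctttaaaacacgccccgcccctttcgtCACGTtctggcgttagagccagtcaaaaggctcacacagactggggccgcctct
The single match lies 54 bases before the start and is not part of a CACGTG. In the lysosome list 19 of 51 windows (37.3%) held ACGTG on either strand, and 15 of 51 (29.4%) held CACGTG, against 7.73% of the windows of all genes tested.

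Autophagy genes were less uniform. Of 22 measured genes, 8 were higher and 4 lower with a median of 0.04. The falls numbered 0 or 1 without any 1 array other than GW8510 replicate 3, while 7 rises passed with any 1 array left out. The risen genes included the cargo receptor gene Sqstm1 (0.41) and the autophagosome coat genes Map1lc3b (0.62) and Gabarapl1 (0.51).

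Calcium-binding S100 proteins, annexins, which bind membranes when calcium is high, and galectins, which bind sugars, made up another group with large rises. Of 30 measured genes 16 were higher (53.3%) and 2 lower, and 7 rose at least 2-fold, against 1.25% of all genes. The median log2 change was 0.31, and 12 rises passed with any 1 array left out. Anxa2 read 2665, 2538 and 2656 with GW8510, against 597, 628 and 605 with DMSO, a change of 2.10 ± 0.06 (SE). In the alternative settings the change of Anxa2 ran from 0.88 to 2.12, and its call held in all of them. Lgals2 read 4725, 4065 and 5154 with GW8510, against 997, 765 and 996 with DMSO, and Anxa13, an annexin of epithelial cells, read 197, 188 and 225 with GW8510, against 67.8, 66.5 and 55.9 with DMSO. No GW8510 array of these 3 genes overlapped the DMSO arrays, which for Lgals2 follows from how it was chosen. S100a1 changed the other way, by -0.30, and so did Anxa4, by -0.28, a call that was lost in 5 alternative settings.

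Genes that mark beta cells changed in both directions. Of 20 measured genes 6 were higher (30%) and 4 lower (20%, against 13% of all genes), with a median of 0.05. Without GW8510 array 3, 7 members were lower, and without any 1 of the other 5 arrays 2 or 3 were. Beside Slc2a2, the rises were those of Sytl4, the granule protein granuphilin (0.76), the disulfide oxidase gene Ero1b (0.52), the factor Hnf4a (0.51), the incretin receptor gene Glp1r (0.29) and the decarboxylase gene Ddc (0.25), of which Ddc was lost in 4 alternative settings and Glp1r with all 12 arrays in the fit. The falls that passed with any 1 array left out were those of 2 transcription factors. Nkx2-2, needed to form beta cells, read 1241, 1282 and 1363 with GW8510, against 1771, 1696 and 1757 with DMSO, a change of -0.43, and Isl1 read 10818, 10101 and 11329 with GW8510, against 13345, 13517 and 13345 with DMSO, a change of -0.32.

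Pdx1 changed by -0.20 (adjusted p = 0.044, limma) and Pax6 by -0.22 (adjusted p = 0.0333), and each of these small falls failed in 8 alternative settings. The second Pdx1 probe set changed by 0.15. Differences that did not pass were those of Nkx6-1 (-0.27), Neurod1 (-0.13), Foxa2 (0.15), Insm1 (0.15), G6pc2 (0.19), Gjd2 (-0.29), Trpm5 (-0.23), Cltrn (0.01) and Pax4 (0.09), beside Iapp above. Of these, Trpm5 passed as a fall in 10, Gjd2 in 9 and Nkx6-1 in 8 of 19 alternative settings, among them quantile normalization and the fit without GW8510 replicate 3. G6pc2, the islet glucose-6-phosphatase, read 11171, 10575 and 11864 with GW8510, against 9547, 10494 and 9356 with DMSO, and its groups did not overlap.

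Islet transcription factors moved both ways. Of 27 listed factors, 6 were higher and 6 lower. The list shares 10 members with the beta cell genes above, and of the other 17 factors 5 were higher and 2 lower. Myt1, a zinc finger factor of endocrine progenitors, read 319, 348 and 371 on the GW8510 arrays, against 686, 634 and 714 on the DMSO arrays, a log2 change of -0.97 ± 0.08 (SE). Mnx1, which keeps beta cells of mice from turning into delta-like cells, read 609.9, 603 and 656 with GW8510, against 964, 1039 and 1042 with DMSO. Hes1, the Notch effector that holds back endocrine differentiation, read 198, 196 and 241 with GW8510, against 121, 124 and 143 with DMSO, a change of 0.71, and Foxa1 changed by 0.51. None of these groups overlapped.

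Among hormone genes, the glucagon gene was higher. Gcg read 11927, 11305 and 12889.8 on the GW8510 arrays, against 6647, 6616 and 5997 on the DMSO arrays, a log2 change of 0.91 ± 0.08 (SE) (adjusted p = 6.59e-05, limma), and the call held in every alternative setting. Of 13 measured genes of alpha, delta and PP cells 3 were higher (23.1%, against 18.7% of all genes) and 0 lower. The other rises were those of the glutamine transporter gene Slc38a5 (1.04) and of Rgs4 (0.60).

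Genes that couple glucose to secretion moved both ways. Of 19 measured genes 4 were higher and 6 lower. Glud1, the glutamate dehydrogenase that feeds the citric acid cycle, changed by 0.56 and Mpc1, a subunit of the mitochondrial pyruvate carrier, by 0.37. Cacna1d and Cacna1c, the pore subunits of the L-type calcium channels through which beta cells are triggered, read 141, 122 and 128 with GW8510, against 198, 202 and 212 with DMSO, and 278, 283 and 358 with GW8510, against 461, 477 and 411 with DMSO. In both channel genes every GW8510 array was below every DMSO array, and the changes were -0.65 and -0.56. Pcx, the pyruvate carboxylase that refills the cycle, changed by -0.43.

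Several genes that mature beta cells keep low were among the rises. Of 21 measured genes 8 were higher (38.1%) and 1 lower, with a median of 0.21, and 5 were higher without DMSO replicate 2. They include Ldha, Hk1 and Slc2a1 above, which the glycolysis list also holds, and Mgst1, a membrane-bound glutathione transferase, which read 86.0, 88.8 and 55.4 with GW8510, against 24.0, 30.1 and 27.5 with DMSO. The exception was the chemokine gene Cxcl12 (-0.76).

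Most genes of the secretory granule that were measured fell. Of 22 measured genes for prohormone processing and granule cargo 13 were lower (59.1%, against 13% of all genes) and 2 higher, with a median log2 change of -0.30. A total of 10 of these falls passed with any 1 array left out. Resp18, an ER-resident protein of endocrine cells, read 3872, 4046 and 4021 on the GW8510 arrays, against 7632, 7270.0 and 7674 on the DMSO arrays, a change of -0.92 ± 0.06 (SE) (adjusted p = 2.08e-05, limma). Rab3a, a GTPase on granules, changed by -0.57, beside Cplx2 and Ptprn2 above. In these 4 genes the groups did not overlap, which for Cplx2 and Ptprn2 follows from how they were chosen. Chgb, the granule protein chromogranin B, read 17198, 16357 and 17773 with GW8510, against 20000, the upper bound, on each DMSO array. This makes it at least 1.17-fold lower with GW8510 (adjusted p = 0.0245, limma). Because the DMSO values stood at the bound, this p-value does not measure the spread between the DMSO cultures. The exceptions were Sytl4 (0.76) and Rab27a (0.32), 2 partners that dock granules, and the Rab27a call was lost in 4 alternative settings.

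The machinery of exocytosis changed in both directions. Of 40 measured genes 9 were higher and 13 lower, with a median of 0.01. Cadps, which primes dense-core granules, read 267, 252 and 258 on the GW8510 arrays, against 680.3, 676 and 661 on the DMSO arrays, a log2 change of -1.38 ± 0.06 (SE). Exoc4, a subunit of the exocyst tether, changed by -1.55, the vesicle glycoprotein gene Sv2a by -0.97, and Rims2, which links Rab3 to the release site, by -0.78. The 4 largest rises were those of 3 SNARE genes, Vamp8, Stx3 and Snap23, and of Stxbp3, which binds SNARE proteins. Vamp8 read 438, 401 and 484 with GW8510, against 133, 141 and 125 with DMSO, and Stx3 read 1141, 1097 and 1319 with GW8510, against 475, 429.9 and 427 with DMSO. Their changes were 1.73 and 1.41, with no overlap, beside Snap23 (0.90) and Stxbp3 (0.86).

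**Figure D3:**
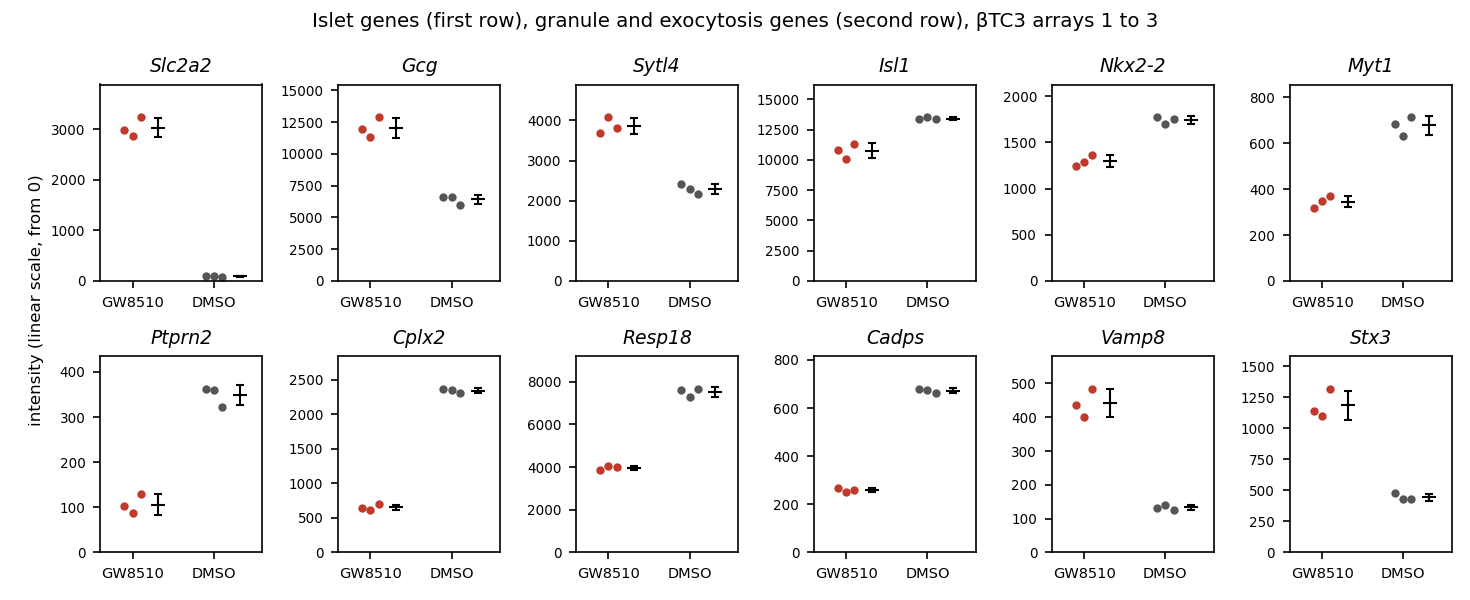
Intensity (linear scale, from 0) of 12 islet, granule and exocytosis genes on the 3 GW8510 arrays (red, left) and the 3 DMSO arrays (gray, right) of βTC3 cells, with the mean and SD as a black bar. Slc2a2, Gcg, Sytl4, Vamp8 and Stx3 stand higher with GW8510, and the other 7 genes stand lower.

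Replication genes were lower more often than higher. Of 49 measured genes of G1/S and replication 20 were lower (40.8%) and 4 higher, with a median log2 change of -0.15, and 14 falls passed with any 1 array left out. No member changed 2-fold. Pola1, which encodes the polymerase that makes primers at replication origins, read 916, 969.6 and 1062 on the GW8510 arrays, against 1688, 1603 and 1645 on the DMSO arrays, a change of -0.75 ± 0.07 (SE) (adjusted p = 0.000142, limma). The helicase subunit gene Mcm2 read 3793, 3592 and 3732 with GW8510, against 5092, 4959 and 5148 with DMSO, and Pold2, a subunit of polymerase delta, changed by -0.55. Mcm10 went the other way and read 599, 648 and 727 with GW8510, against 463, 424 and 389.8 with DMSO. The proliferation marker gene Pcna read 14864, 15402 and 15262 with GW8510, against 17005, 15969.8 and 16899 with DMSO, a difference that did not pass (adjusted p = 0.145, limma).

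Of 50 genes of G2 and mitosis 13 were higher (26%) and 9 lower (18%), with a median of 0.04, close to that of all genes, and both shares lay near the 18.7% and 13% of all genes. The kinase gene Aurka read 2837, 2949.9 and 3141 with GW8510, against 1993, 1829.9 and 1976 with DMSO. Cdk1, the kinase that starts mitosis, read 6977, 6943 and 8027 with GW8510, against 5618, 5147 and 5609 with DMSO. Pttg1, the securin that holds sister chromatids together, changed by 0.55 and the kinesin gene Kif20a by 0.54. Smc4, a condensin subunit, changed by -0.60 and Ect2, needed for cytokinesis, by -0.37. Without DMSO replicate 2, 5 members were lower.

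Among the cyclins, CDK inhibitors and pocket proteins that control entry into S phase, 7 of 22 were higher and 8 lower. Of the CDK inhibitors, Cdkn2b (p15) read 363, 378 and 369.8 with GW8510, against 241, 251 and 213 with DMSO and Cdkn1a (p21) read 4303, 4224 and 4982 with GW8510, against 3225, 3134 and 3322 with DMSO. By contrast, Cdkn1b (p27) read 3101, 3089 and 3235 with GW8510, against 4518, 4817 and 4019.8 with DMSO and Cdkn2d (p19) changed by -0.55. The inhibitors went in opposite directions, each without overlap of the groups. The pocket protein genes Rb1 and Rbl1, whose products restrain E2F and are bound by the large T antigen, changed by -0.78 and -0.79. Ccnd3 changed by 0.71, and Cdk2, which encodes the annotated target of the compound, read 795, 756 and 777 with GW8510, against 787, 718 and 690.2 with DMSO, a log2 change of 0.09 that did not pass (adjusted p = 0.384, limma).

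The p53 target genes, a pathway the study examined in alpha cells, changed in part in the beta cells. Of 40 measured targets 13 were higher (32.5%) and 3 lower, with a median of 0.11, and 10 rises passed with any 1 array left out. Without any 1 array other than GW8510 replicate 3, 1 target was lower. The rises that reached 2-fold were those of Perp and Ephx1. Plk2, a stress-induced kinase, read 490.5, 453 and 552 with GW8510, against 285, 244 and 234 with DMSO, a change of 0.97. Cdkn1a, which halts the cycle, changed by 0.48 ± 0.08 (SE) (adjusted p = 0.00214, limma). Ccng1, cyclin G1, read 2185, 2241 and 2269.6 with GW8510, against 1755, 1735 and 1651 with DMSO, a change of 0.38. Mdm2, which marks p53 for degradation, read 922, 805 and 886 with GW8510, against 789, 832 and 755 with DMSO, and its change of 0.14 did not pass (adjusted p = 0.207). The adenylate kinase gene Ak1 changed by -0.62, a call that was lost when its probe sets were averaged.

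A further list held 36 measured genes of the p53, cell cycle and stress responses, only some of which the text of the study names. Of these genes 11 were higher and 6 lower in the beta cells. The pro-apoptotic genes Bid and Bbc3 (PUMA) changed by 0.60 and 0.37, the stress genes Ier3 and Atf3 by 0.65 and 0.44, and Cdkn2a by 0.34. Gtse1 changed by 0.31, a call lost without DMSO replicate 1 or 2. Of the falls, Cdkn1b alone passed with any 1 array left out, and without GW8510 replicate 1 or 2 or DMSO replicate 2 or 3 it was the only fall. The calls of Pdx1, Pax6, Zmat3 (-0.23), Sesn1 (-0.24) and Atr (-0.28) were lost in 4 to 8 alternative settings each. The other 19 did not pass, among them Ccnd1 (-0.09), Ccnd2 (-0.04), Gadd45a (0.04), Mapk14 (-0.05), Mapk8 (-0.13), Fos (-0.12), Thbs1 (-0.05), Apaf1 (0.01) and Trp53inp1 (0.09), Tnfrsf10b (0.10), Igfbp3 (0.07), Igf1 (0.05), Sfn (0.02), Ei24 (-0.01), Fasl (-0.14) and Ccne2 (-0.20). Of these, Mapk8, the stress kinase JNK1, passed in 3 alternative settings, with a change of -0.40 on the mean of its probe sets (adjusted p = 0.0031, limma) and -0.78 on the probe set of highest variance (adjusted p = 0.00369, limma).

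Of 33 genes of death receptors and mitochondrial apoptosis 9 were higher and 5 lower, with a median of 0.05, and 5 rises passed with any 1 array left out, the number also left without DMSO replicate 1 or 2. The falls numbered 3 without GW8510 replicate 1 or 2 or DMSO replicate 1 or 2. Beside Bnip3 and Bid, the effector gene Bak1 (0.51) and the caspase gene Casp6 (0.77) were higher. The falls included Htra2 (-0.46), Xiap (-0.43) and Bcl2l2 (-0.56), of which Xiap and Bcl2l2 are inhibitors of cell death, with calls that were lost when the probe sets of a gene were averaged, and Htra2 promotes it.

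**Figure D4:**
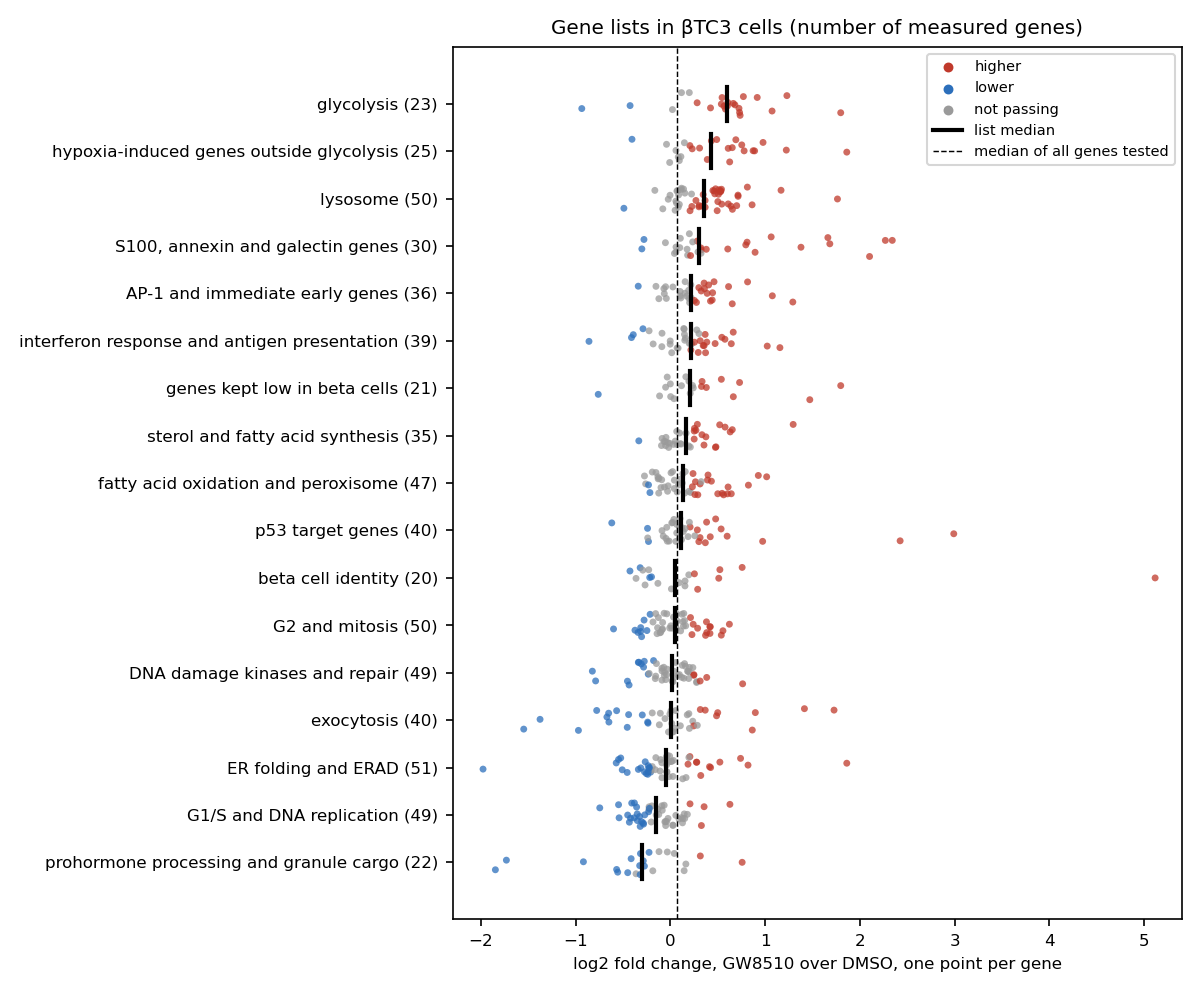
Log2 fold change of GW8510 over DMSO in βTC3 cells for the members of 17 gene lists, 1 point per gene, with the number of measured genes in parentheses. Red and blue points passed at an adjusted p under 0.05, gray points did not, black bars are list medians (glycolysis 0.60, granule cargo -0.30), and the dashed line is the median of all 12203 genes, 0.07.

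Stress response genes changed in both directions. In the list of NRF2 targets, glutathione and antioxidant enzymes, 17 of 46 genes were higher (37%) and 5 lower, with a median of 0.14. Hmox1, the heme oxygenase, read 689.6, 800.1 and 767 with GW8510, against 327, 358 and 339.5 with DMSO, and Akr1b8, an aldose reductase, changed by 1.25. Catalase (Cat), normally scarce in beta cells, read 803, 734 and 665 with GW8510, against 474, 496 and 439.8 with DMSO. In all of these the groups were separate. Txnrd2, the mitochondrial thioredoxin reductase, and Gstm1 changed by -0.72 and -0.52, and the falls of the list numbered 2 or 3 without any 1 array other than GW8510 replicate 3.

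In the integrated stress response, 14 of 39 genes were higher and 6 lower, with a median of 0.07, equal to that of all genes. The translation repressor gene Eif4ebp1 changed by 0.81 and the stress-induced gene Nupr1 by 0.64, while the factor Cebpb and the glutathione-degrading enzyme gene Chac1 changed by -0.66 and -0.54.

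ER folding and degradation genes also split. Of 51 genes 11 were higher and 17 lower (33.3%). The falls numbered 8 to 11 without any 1 of GW8510 replicate 1 or 2 or DMSO replicate 1, 2 or 3, and 8 passed with any 1 array left out. Beside Derl3, the stress sensor gene Atf6 (-0.57), the translocon subunit gene Ssr4 (-0.55) and the chaperone partner gene Sdf2l1 (-0.53) were lower. The higher ones were the oxidases Ero1a and Ero1b and 2 genes of ER-associated degradation, Edem1 (0.82) and Sel1l (0.74). Edem1 read 2854, 3236 and 3013 with GW8510, against 1825, 1608 and 1728 with DMSO, and Atf6 read 361, 344 and 338 with GW8510, against 493, 530.1 and 529 with DMSO. Neither gene had overlapping groups.

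Of 36 measured immediate early genes and Kruppel-like factors 17 were higher (47.2%) and 1 lower, with a median of 0.22, and 12 rises passed with any 1 array left out. Klf2 read 131, 162 and 153 with GW8510, against 59.0, 59.3 and 63.4 with DMSO, Klf6 changed by 1.08 and Klf4 by 0.81. Of 36 genes of the JNK, p38 and other MAP kinase cascades 11 were higher and 4 lower. Map2k6, a kinase that activates p38, read 594, 556 and 719 with GW8510, against 353, 311 and 325 with DMSO, and Mapk10, the neuronal JNK3, read 1589.6, 1594 and 1456 with GW8510, against 2909.9, 3012 and 2559 with DMSO. These 2 genes moved in opposite directions with no overlap, by 0.91 and -0.87. Without GW8510 replicate 2 or DMSO replicate 1 the falls of the list numbered 2. The phosphatase genes Dusp3 and Dusp16 changed by 0.88 and 0.67.

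Lipid genes were called higher more often than lower, and most did not pass. Of 35 genes of sterol and fatty acid synthesis 15 were higher (42.9%) and 1 lower, with a median of 0.16. Tm7sf2, a sterol reductase, read 885, 844 and 958 with GW8510, against 367, 385 and 343 with DMSO, the fatty acid synthase gene Fasn changed by 0.65 and the desaturase gene Scd1 by 0.63, while Acly, which supplies acetyl-CoA, changed by -0.33. Of 47 genes of fatty acid oxidation and peroxisomes 18 were higher (38.3%) and 2 lower. The falls numbered 5 without GW8510 replicate 3 and 0 or 1 without any 1 of the other arrays. Hadh, a mitochondrial dehydrogenase that is abundant in beta cells and restrains insulin release, read 8177, 8489 and 8818 with GW8510, against 4291, 4014 and 4299.9 with DMSO, and Cpt1a, the gate for fatty acids into mitochondria, read 454, 419.5 and 512 with GW8510, against 264, 264 and 253 with DMSO. Both pairs of groups were separate.

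Few subunits of oxidative phosphorylation passed. Of 68 genes 5 were higher and 9 lower, which is 7.35% and 13.2% against 18.7% and 13% of all genes, with a median of -0.04 and a range of -0.61 to 0.40. The falls numbered 2 to 4 without any 1 array other than GW8510 replicate 3, the rises 3 without DMSO replicate 2, and the falls 20 after a further quantile normalization. The extremes were Atp5g2 (-0.61), a gene for the membrane ring of ATP synthase, and Atp5d (0.40), a gene for its stalk.

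The list medians of beta and alpha cells had opposite signs for glycolysis and the other hypoxia-induced genes, among other lists. The difference between the 2 responses was tested by a limma contrast over all 12 arrays on the same probe sets, and it was positive (the signed log2 change lay higher in βTC3 than in αTC1) in 2015 genes (16.5%) and negative in 1465 (12%) at an adjusted p under 0.05. In the glycolysis list the difference was positive in 17 of 23 genes and negative in 1, with medians of 0.60 in beta and -0.40 in alpha cells. For the other hypoxia-induced genes it was positive in 16 of 25 and negative in 2, with medians of 0.43 and -0.53. Ero1a changed by 1.86 in beta cells and by -1.54 in alpha cells, a difference of 3.40 ± 0.11 (SE) (adjusted p = 1.13e-09). Bnip3 changed by 1.22 and -1.65, and Ldha by 1.80 and -0.40 in beta and alpha cells. Mean Ldha intensity was 4382 with GW8510 and 1279 with DMSO in beta cells, against 6947 with GW8510 and 9184 with DMSO in alpha cells, which puts the treated beta cells between the untreated beta cells and the alpha cells.

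In mitosis genes the difference was positive in 34 of 50 genes and negative in 1, with medians of 0.04 in beta and -0.33 in alpha cells. The beta median lay close to that of all genes, 0.07. In the integrated stress response list the difference was positive in 24 of 39 genes and negative in 3, with medians of 0.07 and -0.36. The p53 targets went the other way, with a difference that was negative in 27 of 40 genes, positive in 4, and medians of 0.11 and 0.81. Cdkn1a changed by 0.48 in beta and 2.32 in alpha cells, a difference of -1.84 ± 0.10 (SE) (adjusted p = 6.87e-08, limma). Ccng1 averaged 2232 with GW8510 and 1714 with DMSO in beta cells, against 11611 with GW8510 and 1635 with DMSO in alpha cells, so the DMSO means of both lines were close.

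In lysosome genes the medians were 0.36 in beta and 0.38 in alpha cells, and their difference was positive in 10 and negative in 17 of 50 genes. In replication genes the medians were -0.15 in beta and -0.34 in alpha cells, and the difference was positive in 20 of 49 genes and negative in 4. Slc2a2 differed between the lines by 5.21 ± 0.09 (SE), and the alpha cells averaged 22.4 with GW8510 and 23.9 with DMSO, close to the lower bound.

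**Figure D5:**
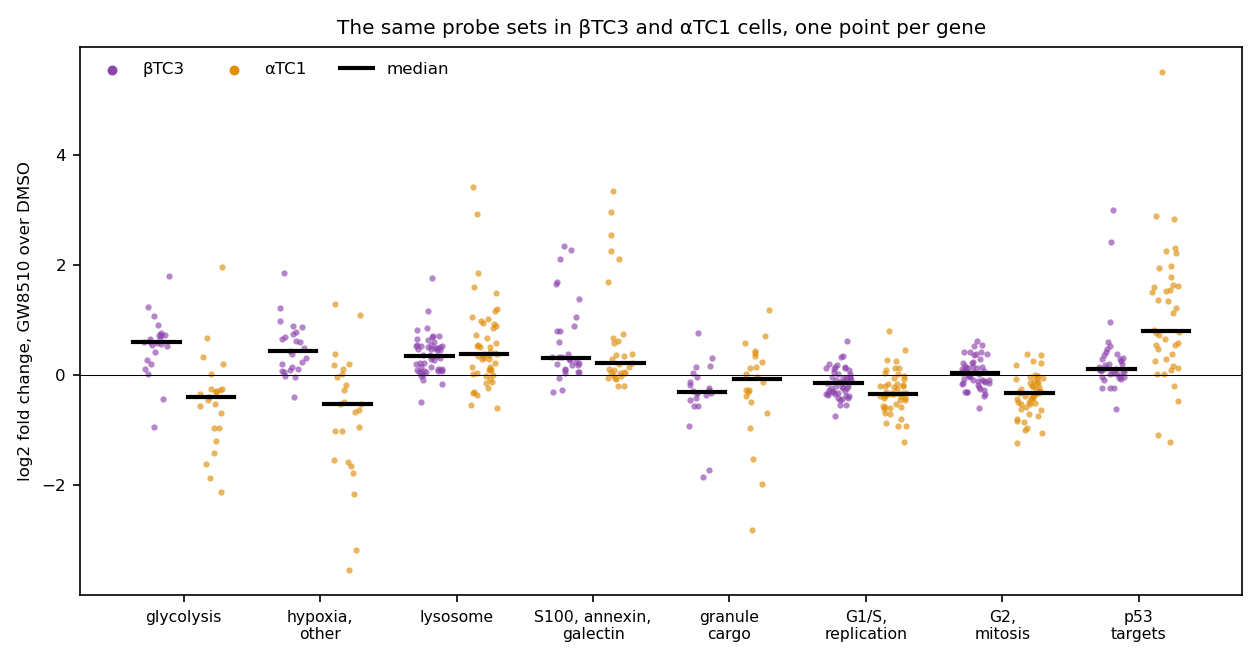
Log2 fold change of GW8510 over DMSO for the members of 8 gene lists, 1 point per gene, in βTC3 (purple, left) and αTC1 (orange, right) on the same probe sets, with medians as black bars. In glycolysis the medians are 0.60 and -0.40, and in p53 targets they are 0.11 and 0.81.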

How the data were processed

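RNA from 12 cultures, 6 of them βTC3, was hybridized to Affymetrix mouse expression arrays, 1 array each. The deposited values are intensities on a linear scale, made by the authors with RMA per the submitters' processing notes, which give no version, and bounded at 20 and 20000. Probe sets at a bound have no fold change there. Of 22690 probe sets 20380 have 1 gene symbol in the platform table, 691 several, 1555 none, and 64 are controls. Each of 12203 genes is represented by its probe set with the highest mean log2 intensity over the 6 beta arrays, leaving out 459 at a bound on all 6. No pseudocount was added. Group means were fitted with limma 3.58.1 in R 4.3.3, moderated by eBayes, with Benjamini-Hochberg adjustment over all genes. The p-values measure the spread between these cultures, except where a group stood at a bound. The fit was tested on simulated data. The difference between the lines is a contrast over 12 arrays.

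The text names the 15 largest rises and falls without overlap, up to 4 called members of each list in either direction, all genes of the list of p53, cell cycle and stress genes and of beta cell identity, and the 5 largest differences between lines in each direction. Sst, Irx1, Ppy and Ins2 were added as markers, and Chgb after its values were seen. The genes and the 40 lists were chosen with earlier results of these data known. Some genes stand in more than 1 list. The main fit did not pair cultures by replicate number, although the study calls its alpha cell controls matched. Alternatives covered normalization, probe set choice, filters, pseudocounts of 1 and 16, the spread, array weights, a replicate block and leaving out each array. Promoter windows are from RefSeq (GRCm38.p6).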

Additional observations from a re-analysis of the deposited data

Results flagged for a closer look

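These results are given because the limma test of the difference between the lines passed. The signed log2 change with GW8510 lay higher in beta than in alpha cells in 2015 genes and lower in 1465. Among the 5 genes with the most positive difference, Serpina1c differed by 6.57 ± 0.13 (SE) on the log2 scale, with 2328 ± 185 with GW8510, against 112 ± 10.1 with DMSO in beta cells, and means of 403 with GW8510 and 1836 with DMSO in alpha cells. Serpina1b differed by 6.31 ± 0.14 (SE), on a probe set that can bind near-identical paralogs. Slc2a2 differed by 5.21 ± 0.09 (SE). Spp2, a secreted phosphoprotein, differed by 4.69 ± 0.17 (SE), with changes of 1.18 in beta and -3.51 in alpha cells. Selenbp1, a selenium-binding protein, differed by 3.80 ± 0.23 (SE), although its beta call was lost in 5 alternative settings.

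In the 5 genes with the most negative difference the alpha cells rose and the beta cells did not. Aldh1l1, a folate enzyme, differed by -4.19 ± 0.28 (SE), with changes of -0.24 in beta and 3.95 in alpha cells. Nectin4, an adhesion gene, differed by -3.86 ± 0.16 (SE). Ckmt1, the mitochondrial creatine kinase, differed by -3.75 ± 0.10 (SE) and was itself lower in beta cells, with a change of -0.84. Acaa1b, a peroxisomal thiolase, differed by -3.35 ± 0.09 (SE), with 23.5 with GW8510 and 23.9 with DMSO in beta cells, near the lower bound. Tek, an endothelial receptor, differed by -3.29 ± 0.13 (SE) and was near the lower bound in beta cells as well.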

How the results depend on the processing

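The counts of genes higher and lower with GW8510 stayed within 1.5 times of 2283 and 1589 under every alternative except one, the test of every probe set on its own, which called 2510 probe sets lower. With 1 array left out, 1563 to 2157 genes were higher and 1116 to 1993 lower, the fewest rises without DMSO replicate 2. The counts past 2-fold ran from 137 to 164 upward and from 78 to 101 downward with 1 array left out. With 1 array of either line left out, the difference between the lines was positive in 1671 to 2126 and negative in 1216 to 1763 genes. It was positive in 1934 and negative in 1942 genes after quantile normalization, and 1831 and 1819 after centring, so the excess of positive genes (2015 against 1465) rests on the scaling.

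Scaling moved the balance of calls. Higher genes were 59.0% of calls, against 50.8% after a further quantile normalization (2255 higher, 2185 lower), 54.0% with each array centred on its median, and 50.7% with quantile normalization and without GW8510 replicate 3, a pair of choices added after seeing the data (2064 higher, 2003 lower). The median log2 change of all genes was 0.07, 0.01, 0.04 and, without GW8510 replicate 3, 0.03. The replicate block gave 2270 higher and 1496 lower genes. Correlations of deviations between arrays of the same number were -0.12, 0.08 and 0.03. These few values show no shared replicate effect, but they cannot show that the cultures were unpaired. With the block Pdx1 (adjusted p = 0.0786, limma) and Pax6 (0.0646) lost their calls.

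Of 255 named genes with a call, 198 kept it in every alternative that held the gene. These were at most 19 for each gene, because filters left some genes out. With the probe set of highest variance, 3 of these called genes changed sign: Bcl2l11 to 0.66, Pax6 to 0.17 and Timp2 to -0.19. Intensities at 20000 hide changes of the insulin, amylin and somatostatin genes, and those near 20 understate folds.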

Other observations

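Further groups are given as values, against 18.7% of all genes higher and 13% lower. Ribosome biogenesis genes were higher in 25 of 69 cases and lower in 2, with a median log2 change of 0.13, and 14 were higher without DMSO replicate 2. The nucleolar methyltransferase gene Nop2 read 585, 583 and 643 with GW8510, against 372, 391 and 401 with DMSO. Of 40 proteasome genes 7 were higher (17.5%, near the share of all genes) and 2 lower (5%). Without any 1 DMSO array 3 or 4 were higher. The larger of the 2 falls was that of the immunoproteasome subunit gene Psmb9. It read 221, 247 and 249.9 with GW8510, against 454, 407 and 440.1 with DMSO, a change of -0.86. The other fall was that of Psmd1, whose call held in every alternative setting. Of 39 interferon response genes 16 were higher and 4 lower. The chemokine gene Cxcl10 changed by 1.16 and the antiviral gene Rsad2 by 1.02, while the peptide transporter gene Tap2 changed by -0.41 and the interferon brake Usp18 by -0.39.

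Insulin and IGF signalling genes were mostly without a call, with 3 of 34 higher and 4 lower. Grb14, an adaptor that inhibits the insulin receptor, read 30.7, 31.5 and 32.8 with GW8510, against 103, 80.9 and 71.3 with DMSO, a log2 change of -1.41, and the substrate gene Irs1 changed by -0.35. Neuronal cytoskeleton and synapse genes split, with 10 of 44 higher, such as the tubulin genes Tubb2b (1.43) and Tubb3 (0.78) and the intermediate filament gene Prph (0.98), and 9 lower, such as the contactin gene Cntn1 (-1.29), the RNA-binding protein gene Elavl4 (-1.04) and the adhesion gene Ncam1 (-0.95). In the list of epithelial genes 7 of 38 were higher (18.4%), among them the integrin gene Itga6 (0.84) and the keratin gene Krt7 (0.82), and 1 was lower. In the list of secreted and lipid-binding genes of liver type 8 of 47 were higher (17%) and 0 lower, with a median of 0.14. The summed duct, acinar and fibroblast markers given above were also higher with GW8510. So were those of beta, alpha and delta cells, where Slc2a2, Gcg and Sst made up much of the rise. The part of these sums in the values of these genes was not tested. The shares of both lists lay below that of all genes. The liver-type rises include the heme carrier gene Hpx, with 73.0, 70.8 and 77.4 with GW8510, against 37.0, 47.6 and 44.6 with DMSO.

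Of 49 genes of DNA damage kinases and repair 5 were higher and 11 lower, and 2 and 5 passed with any 1 array left out, and the falls numbered 5 to 7 without any 1 array other than GW8510 replicate 3. The kinase gene Chek2 changed by 0.76, Prkdc, the catalytic subunit of DNA-dependent protein kinase, by -0.82, and the uracil glycosylase gene Ung by -0.79. Of 42 matrix and adhesion genes 8 were higher and 0 lower, and of 17 aldehyde dehydrogenases 5 were higher. Among markers of other cell types, the acinar gene Cela1 changed by 1.03, the mesenchymal genes Col1a2 and Vim by 0.90 and 0.68, and the macrophage gene C1qa by -0.80. In the duct list 3 of 7 genes were higher, or 1 without DMSO replicate 1 or 2, in the fibroblast and endothelial list 3 of 13, in the acinar list 1 of 10, and in the immune list 2 of 12, or 0 without DMSO replicate 2 or 3.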
